A study of Homo sapiens with 6 samples.

Results

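The genes described here are 10 members of the transforming growth factor beta (TGF-beta) pathway: the ligands TGFB1, TGFB2 and TGFB3, the receptors TGFBR1 and TGFBR2, the signal carriers SMAD2 and SMAD3, and the feedback genes SMAD7, SKIL and PMEPA1. They were chosen by gene symbol from the 58735 genes of the deposited count table, and all 10 were found and passed the filter on low counts, as did 14975 genes in all. RNA was measured by sequencing in MDA-MB-231, an established human line from a triple-negative breast cancer. There were 3 libraries labelled PM2.5 (fine airborne particulate matter) and 3 labelled Control, with RNA taken after 48 h of exposure. Dose, vehicle and batch do not appear in the labels, nor does whether the libraries came from separate cultures, so p-values measure the spread between these libraries, which may be technical.

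TGF-beta is a secreted cytokine that cells store in the matrix as an inactive, latent complex. Once released it binds the type II receptor TGFBR2, which recruits and phosphorylates the type I receptor TGFBR1. The activated type I receptor phosphorylates the transcription factors SMAD2 and SMAD3, which enter the nucleus with SMAD4. Among the genes they induce are SMAD7, SKIL and PMEPA1, which dampen the signal in turn. In breast cancer the pathway is known for restraining the growth of epithelial cells and for promoting invasion and bone metastasis in advanced disease.

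Libraries held 31846136 to 34691009 counts. Vimentin (VIM), among 5 listed genes known to be present in MDA-MB-231, was at 2658 to 2696 CPM in libraries labelled PM2.5 and 1921 to 2497 CPM in those labelled Control, where CPM is a gene's counts scaled with TMM factors to a common library total. Vimentin does not by itself identify the line. Of the 5, CAV1 and MSN rose (adjusted p under 0.05 by edgeR), and AXL, VIM and CD44 did not pass the test. The 6 luminal and epithelial markers summed to 1088 to 1282 and 841 to 1130 CPM, nearly all of it KRT19. Of these, GATA3 fell (adjusted p = 0.0429 by edgeR), CDH1, EPCAM and PGR were each under 1 CPM, and ESR1 had 0 counts. The leukocyte genes PTPRC and CD3E had 0 counts in all 6 libraries. The 5 leukocyte markers summed to 4.32 to 5.80 CPM in libraries labelled PM2.5 and 1.43 to 2.78 CPM in those labelled Control. Of these, LYZ and CD14 rose (adjusted p under 0.05 by edgeR), but without Control replicate 3 only 1 leukocyte marker was called higher. Endothelial markers summed to 54.2 to 58.8 and 39.8 to 52.6 CPM, nearly all of it PECAM1, with VWF and CDH5 each under 1 CPM, and fibroblast markers summed to 4.95 to 5.65 and 4.32 to 6.58 CPM with LUM at 0. PECAM1 and the fibroblast marker COL1A2 also rose at that threshold. Proliferation genes moved with the groups: MKI67, TOP2A, CCNB1, CDK1 and CCNA2 summed to 638 to 768 CPM in libraries labelled PM2.5 and 118 to 137 CPM in those labelled Control, and their part in the results was not tested. HMOX1, which airborne particles are known to induce in many cells, had 51.2 ± 6.0 CPM in libraries labelled PM2.5 and 812 ± 58.1 CPM in those labelled Control (SD, n = 3 each), so directions below are for the libraries as labelled. Control replicate 3 stood apart on the second principal component, at -21.4, while Control replicates 1 and 2 lay above 0, so results that rest on it are given without it as well.

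Of the ligands, receptors, SMADs and feedback genes, TGFB2, TGFBR2 and SKIL rose, by 1.28-fold to 1.46-fold. The dominant ligand TGFB1, the type I receptor, both SMADs, SMAD7, PMEPA1 and TGFB3 did not pass the test. In bulk RNA, fewer cells of a type and less RNA per cell cannot be told apart for any gene here. The count of 3 higher and 0 lower among 10 members is read against 31.9% of all tested genes called at an adjusted p under 0.05 (edgeR's quasi-likelihood test, Benjamini-Hochberg over all genes), 16.1% higher and 15.8% lower. At an unadjusted p under 0.05, 4 members were higher and 0 lower by edgeR. The share of all genes at that unadjusted threshold is not given here, so this count is not read as an excess. At an adjusted p under 0.05, DESeq2 called 4 members higher and 0 lower, and limma-voom called 3 and 0. Over all genes DESeq2 called 4968 and limma-voom 4692 in either direction, beside 4775 by edgeR. The groups had no overlapping libraries for 4 members (TGFB2, TGFBR2, SMAD7 and PMEPA1), where 44.3% of all tested genes did not overlap. The median log2 fold change of the 10, PM2.5 over Control, was 0.17, against -0.01 over all tested genes. The count of members called higher was 0 without PM2.5 replicate 1 or 2 and 1 without Control replicate 1 or 2. It was 2 without PM2.5 replicate 3 or Control replicate 3. These fits have fewer libraries, and calls over all genes fell in most of them. In either direction 3245 and 3569 genes were called without PM2.5 replicates 1 and 2, and 3523 and 3651 without Control replicates 1 and 2. There were 4594 without PM2.5 replicate 3 and 5280 without Control replicate 3, beside 4775 with all libraries. The drop in members called is therefore not read as particular to them. Without Control replicate 3 the median of the 10 was 0.14, and 34.3% of all genes were called in either direction.

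By level per length (CPM per kb of the deposited gene length), TGFB1 led in both groups, at 155 ± 19.4 in libraries labelled PM2.5 and 152 ± 22.0 in those labelled Control (SD, n = 3 each). TGFBR2 followed at 46.4 ± 0.38 and 36.2 ± 7.47, SMAD3 at 22.4 ± 1.59 and 19.7 ± 2.28, TGFBR1 at 16.7 ± 2.87 and 14.8 ± 0.35, and PMEPA1 at 8.56 ± 0.54 and 7.19 ± 0.31 CPM per kb. TGFB2 stood above SMAD7 in libraries labelled PM2.5, at 5.92 ± 0.89 and 4.43 ± 0.15 CPM per kb, and below it in those labelled Control, at 4.43 ± 0.40 and 5.18 ± 0.25. SKIL (2.62 ± 0.58 and 1.80 ± 0.19), SMAD2 (0.796 ± 0.044 and 0.831 ± 0.014) and TGFB3 (0.536 ± 0.069 and 0.678 ± 0.13) closed the order in both groups. In neither group did neighbours in this order overlap between libraries. The span between TGFB1 and TGFB3 was 289-fold in libraries labelled PM2.5 and 225-fold in those labelled Control. The levels and part of the order depend on the length used. With the shortest principal transcript of each gene, an alternative chosen after seeing the data, the length of SKIL was 3057 bases in place of 7782. SKIL then stood at 6.68 ± 1.47 and 4.58 ± 0.49 CPM per kb and overlapped TGFB2, at 6.14 ± 0.93 and 4.59 ± 0.42, and it took rank 6 in libraries labelled PM2.5 and rank 8 in those labelled Control. SMAD2 kept its rank, at 2.40 ± 0.13 and 2.503 ± 0.041 CPM per kb, and the span between TGFB1 and TGFB3 was 174-fold in libraries labelled PM2.5 and 135-fold in those labelled Control.

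**Figure D1:**
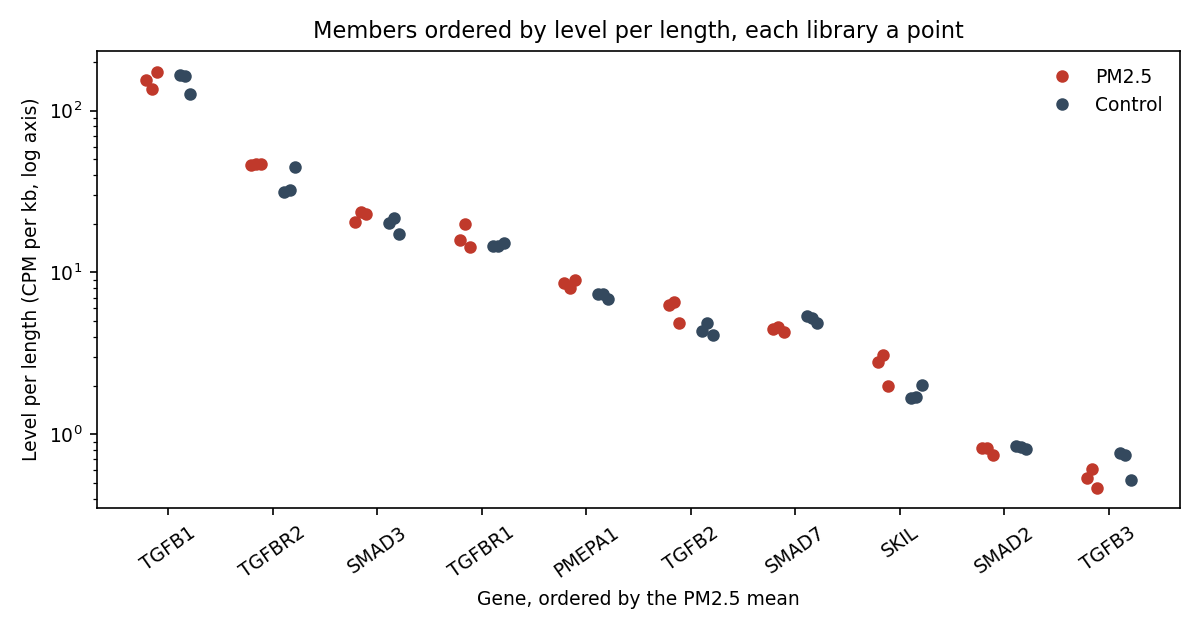
Level per length of the 10 genes in CPM per kb on a log axis, with each library as a point and PM2.5 left of Control. TGFB1 lies between 127 and 175 CPM per kb in every library and TGFB3 below 0.77, and with the deposited lengths no neighbours overlap within a group.

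TGFB1, the ligand most cells secrete, did not pass the test. Its locus is chromosome 19, bases 41301587 to 41353911, minus strand (GRCh38, ENSG00000105329). HNRNPUL1, on the opposite strand, overlaps 6.64% of its exonic bases, and no label gives the strand setting of the counts. It had 501, 440 and 565 CPM in PM2.5 replicates 1 to 3, against 540, 530 and 411 CPM in Control replicates 1 to 3. The ranges of the groups overlapped, and the lowest library of all was Control replicate 3. The log2 fold change was 0.03 ± 0.12 (SE, 95% interval -0.23 to 0.28, adjusted p = 0.894 by edgeR), and its sign turned without Control replicate 3 (-0.09) or PM2.5 replicate 3 (-0.07).

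TGFB2, the isoform that needs the co-receptor betaglycan to bind TGFBR2 well, rose 1.34-fold. On GRCh38 it occupies chromosome 1, bases 218346235 to 218444619, plus strand (ENSG00000092969). Its level was 32.4, 33.8 and 25.3 CPM in PM2.5 replicates 1 to 3, against 22.3, 25.1 and 21.02 CPM in Control replicates 1 to 3. The groups did not overlap, but PM2.5 replicate 3 lay just above Control replicate 2. TGFB2 rose by 0.42 ± 0.13 on the log2 scale (SE, 3 libraries a group, adjusted p = 0.0199 by edgeR). The call was lost without PM2.5 replicate 1 (adjusted p = 0.0861), PM2.5 replicate 2 (0.0867), Control replicate 1 (0.0595) or Control replicate 3 (0.0544) by edgeR. Over all alternatives the log2 fold change of TGFB2 ran from 0.34 to 0.54. TGFB2-OT1, a non-coding transcript on the same strand, covers 26.6% of the exonic bases of TGFB2 and was listed at 0 counts in all 6 libraries. No label names the counter, so it is not known how reads in the shared bases were assigned. The level per length and ligand share of TGFB2 depend on this.

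TGFB3, an isoform known from palate fusion and wound repair, was the least abundant ligand. Its locus is chromosome 14, bases 75958099 to 75982991, minus strand (ENSG00000119699). Its level was 2.62, 2.98 and 2.30 CPM in PM2.5 replicates 1 to 3, against 3.755, 3.67 and 2.57 CPM in Control replicates 1 to 3. Control replicate 3 fell among the libraries labelled PM2.5. With 591 counts over the 6 libraries the interval of the log2 fold change was wide, -0.83 to 0.16 around -0.34 (adjusted p = 0.293 by edgeR, and 0.0948 without Control replicate 3, where the value was -0.50).

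Within each library, TGFB1 made up 95.8%, 94.98% and 97.0% of the length-scaled counts of the ligands in PM2.5 replicates 1 to 3, against 97.0%, 96.7% and 96.5% in Control replicates 1 to 3. TGFB2 made up 3.74% ± 0.94 in libraries labelled PM2.5 and 2.83% ± 0.29 in those labelled Control, and TGFB3 0.338% ± 0.082 and 0.428% ± 0.026 (SD, n = 3 each). With the shortest principal transcripts the mean TGFB3 share was 0.565% and 0.713%. These shares, which do not depend on the scaling between libraries, overlapped between the groups. Exact two-sided permutation tests gave p = 0.3 for TGFB1 and TGFB2 and 0.2 for TGFB3, each 0.3 after Benjamini-Hochberg adjustment over 5 comparisons, where the smallest p that 3 against 3 libraries allow is 0.1.

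TGFBR2, the type II receptor that binds the ligand, rose 1.28-fold. The annotation places it on chromosome 3, bases 30606502 to 30694142, plus strand (ENSG00000163513). It had 216, 220 and 219 CPM in PM2.5 replicates 1 to 3, against 147, 152 and 211 CPM in Control replicates 1 to 3. The libraries labelled PM2.5 lay close together, and Control replicate 3 came nearer to them than to the other controls. This was a log2 fold change of 0.36 ± 0.12 (SE, 3 libraries a group, adjusted p = 0.0304 by edgeR). Without Control replicate 3 it was 0.54 (adjusted p = 0.000131 by edgeR). Without any one of the other libraries the call was lost: adjusted p was 0.0778, 0.0712 and 0.0634 without PM2.5 replicates 1, 2 and 3, and 0.158 and 0.146 without Control replicates 1 and 2, with log2 fold changes of 0.26 to 0.38. With library totals in place of TMM factors it was also lost (adjusted p = 0.0663 by edgeR).

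TGFBR1, the type I receptor kinase, did not pass the test. On GRCh38 it occupies chromosome 9, bases 99104038 to 99154192, plus strand (ENSG00000106799). It had 108, 136 and 98.0 CPM in PM2.5 replicates 1 to 3, against 100.2, 100.3 and 104 CPM in Control replicates 1 to 3. The controls were close together, and the libraries labelled PM2.5 lay on both sides of them. The log2 fold change was 0.17 ± 0.11 (SE, 95% interval -0.07 to 0.40, adjusted p = 0.277 by edgeR), and 0.02 without PM2.5 replicate 2. The log2 ratio of TGFBR2 to TGFBR1 per length was 1.49 ± 0.24 in libraries labelled PM2.5 and 1.27 ± 0.25 in those labelled Control (SD, n = 3 each, exact permutation p = 0.3).

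SMAD3, the DNA-binding signal carrier, was the more abundant of the receptor-activated SMADs. The annotation places it on chromosome 15, bases 67063763 to 67195195, plus strand (ENSG00000166949). It had 188, 214 and 210 CPM in PM2.5 replicates 1 to 3, against 184, 198 and 157 CPM in Control replicates 1 to 3, with overlapping ranges. The log2 fold change was 0.18 ± 0.10 (SE, 95% interval -0.04 to 0.40, adjusted p = 0.194 by edgeR), and 0.09 without Control replicate 3. SMAD2 (chromosome 18, bases 47808957 to 47931146, minus strand, ENSG00000175387) had 29.7, 30.0 and 27.1 CPM in PM2.5 replicates 1 to 3, against 30.6, 30.4 and 29.7 CPM in Control replicates 1 to 3. The groups overlapped, and PM2.5 replicate 3 was the lowest library. Its log2 fold change was -0.06 ± 0.10 (SE, 95% interval -0.28 to 0.16, adjusted p = 0.681 by edgeR). Per length the log2 ratio of SMAD3 to SMAD2 was 4.81 ± 0.15 in libraries labelled PM2.5 and 4.56 ± 0.15 in those labelled Control (SD, n = 3 each, exact permutation p = 0.2), or 3.77 and 3.52 with the shortest principal transcripts.

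**Figure D2:**
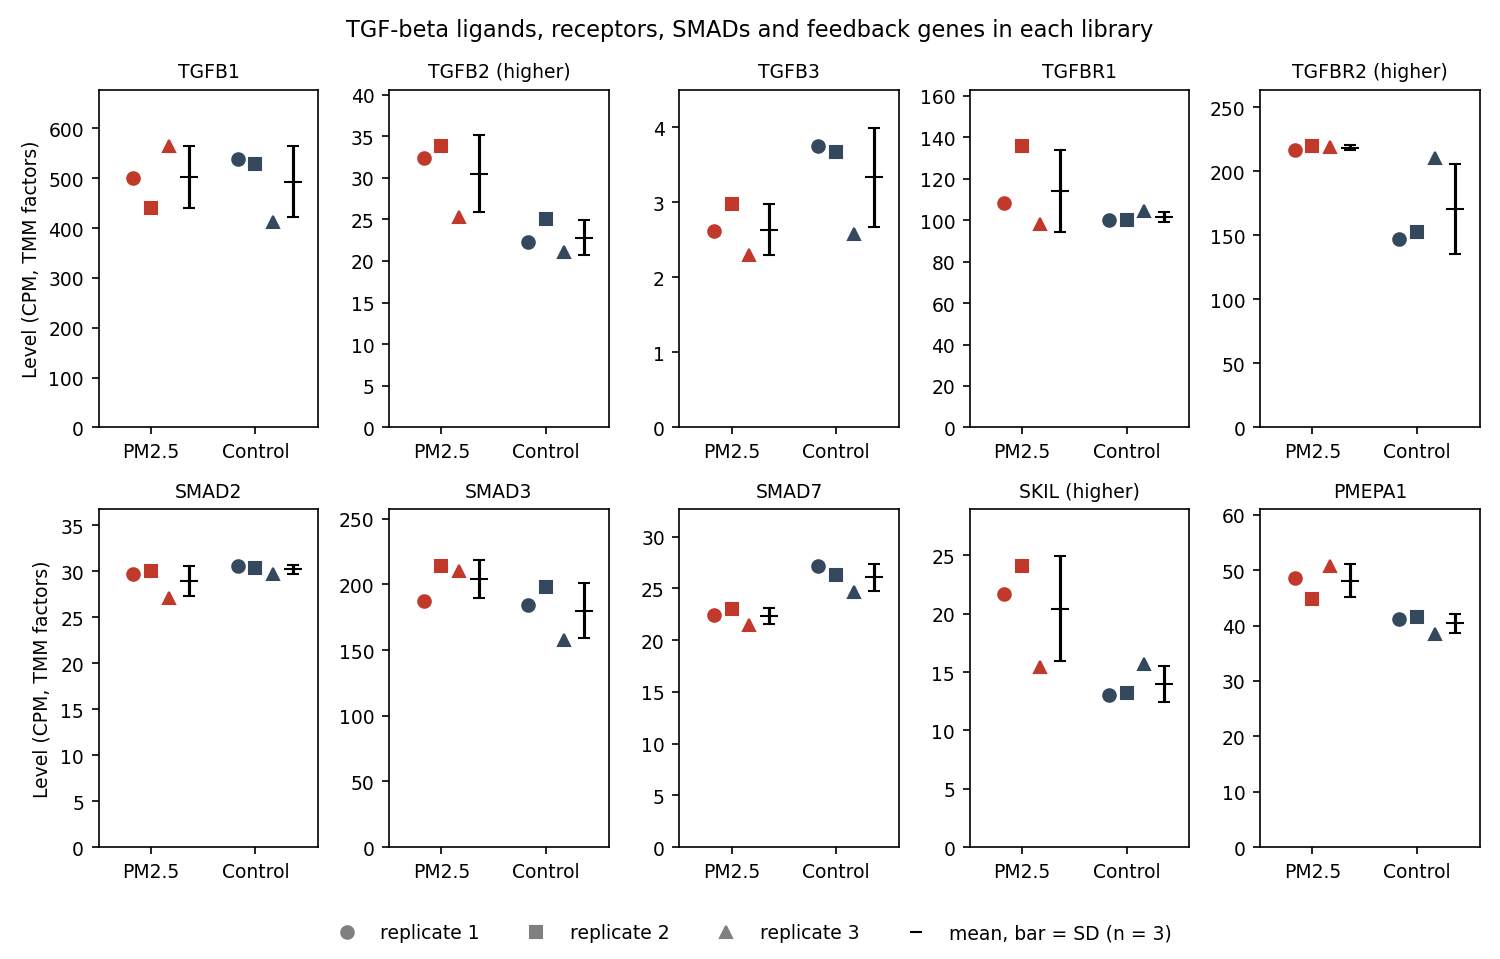
CPM with TMM factors of each of the 10 genes in each library, PM2.5 left and Control right, with the mean and SD (n = 3) beside the points and the called direction in the panel title. TGFBR2 shows Control replicate 3 at 211 CPM beside the libraries labelled PM2.5, and SKIL shows PM2.5 replicate 3 at 15.4 CPM among the controls.

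Of the feedback genes 1 passed the test. SKIL, which encodes SnoN, a repressor that binds SMADs and is degraded when the pathway fires, rose 1.46-fold. Its locus is chromosome 3, bases 170357678 to 170396835, plus strand (ENSG00000136603). Its level was 21.7, 24.1 and 15.4 CPM in PM2.5 replicates 1 to 3, against 13.1, 13.2 and 15.7 CPM in Control replicates 1 to 3. PM2.5 replicate 3 lay below Control replicate 3, so the groups overlapped. On the log2 scale SKIL rose by 0.54 ± 0.16 (SE, 3 libraries a group, adjusted p = 0.0151 by edgeR). It was 0.64 (adjusted p = 0.0129) without Control replicate 3, and the call was lost without PM2.5 replicate 1 (adjusted p = 0.0541 by edgeR), PM2.5 replicate 2 (0.0822) or Control replicate 2 (0.0562). With the replicate number added to the fit as a block, the SKIL call was also lost (adjusted p = 0.0565 by edgeR).

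SMAD7, the inhibitory SMAD that blocks the type I receptor and recruits ubiquitin ligases to it, had lower values in every library labelled PM2.5 but did not pass the test. On GRCh38 it occupies chromosome 18, bases 48919853 to 48952052, minus strand (ENSG00000101665). It had 22.4, 23.0 and 21.5 CPM in PM2.5 replicates 1 to 3, against 27.2, 26.3 and 24.7 CPM in Control replicates 1 to 3. The groups did not overlap, and the log2 fold change was -0.22 ± 0.11 (SE, 95% interval -0.45 to 0.01, adjusted p = 0.132 by edgeR). Over all alternatives its adjusted p ran from 0.0729 to 0.344.

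PMEPA1, a membrane protein that keeps SMAD2 and SMAD3 from the receptor, showed the opposite sign. The annotation places it on chromosome 20, bases 57648392 to 57711536, minus strand (ENSG00000124225). It had 48.6, 44.9 and 50.8 CPM in PM2.5 replicates 1 to 3, against 41.2, 41.6 and 38.4 CPM in Control replicates 1 to 3, with no overlap. The log2 fold change of 0.25 ± 0.10 (SE, n = 3 each) missed the threshold at adjusted p = 0.0622 by edgeR. It was called with upper-quartile factors (adjusted p = 0.0453), library totals (0.0341), the stricter filter on low counts (0.0455) and DESeq2 (0.0480), while adjusted p reached 0.183 among the other alternatives. NKILA, a non-coding gene on the opposite strand, overlaps 6.10% of the exonic bases of PMEPA1 and held 0.787 to 1.38 CPM in libraries labelled PM2.5 and 0.849 to 1.94 CPM in those labelled Control. No label gives the strand setting of the counts, so reads from such antisense pairs cannot be told apart.

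**Figure D3:**
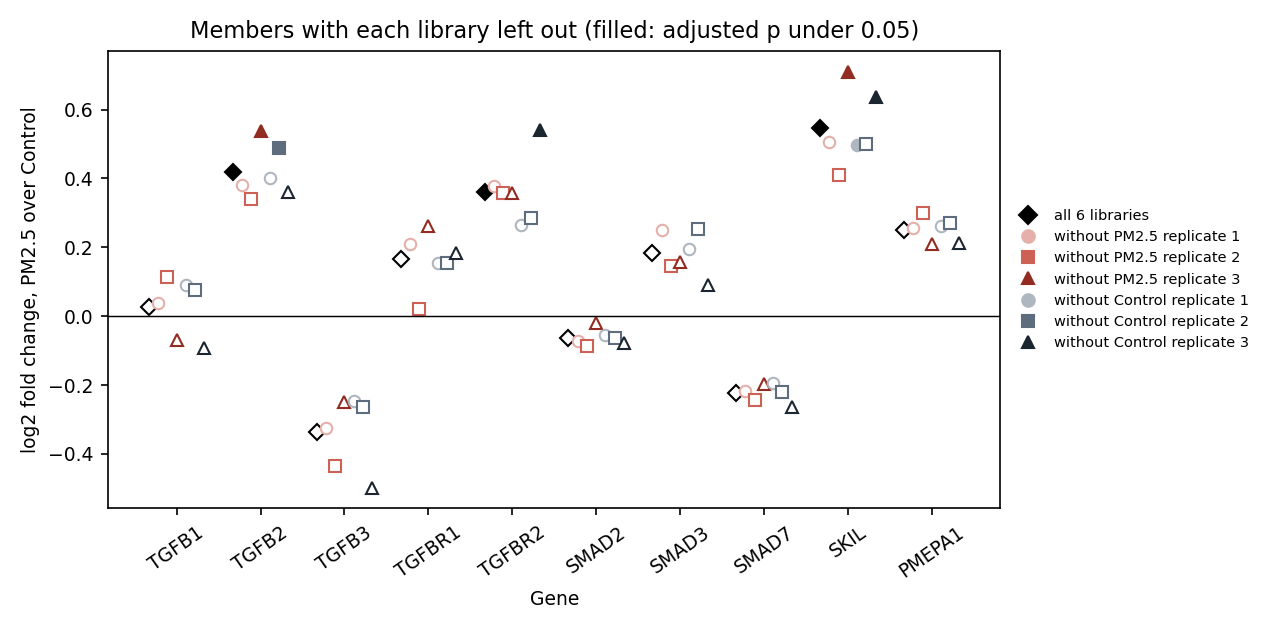
Log2 fold change (PM2.5 over Control) of each of the 10 genes with all 6 libraries (diamond) and with each library left out, filled where the adjusted p was under 0.05. TGFB2, TGFBR2 and SKIL stay above 0 in every fit, from 0.26 to 0.71, but each loses its call in at least 3 of the 6 fits.

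The promoters of the called members SKIL, TGFB2 and TGFBR2 and of SMAD7, the best known feedback target, are shown to set their letters beside these values. RefSeq windows of 300 bases (GRCh38.p14, 250 before and 50 from the start site) were found for all 10 members, taking the window nearest to the deposited gene start. Capitals mark the SMAD-binding element GTCTG or its complement CAGAC and the AP-1 motif TGANTCA, both searched on both strands, as was the SMAD palindrome GTCTAGAC. The windows lie at chr3:170357465-170357764 (plus strand, SKIL), chr1:218345086-218345385 (plus, TGFB2), chr3:30606351-30606650 (plus, TGFBR2) and chr18:48950916-48951215 (minus, SMAD7).
SKIL: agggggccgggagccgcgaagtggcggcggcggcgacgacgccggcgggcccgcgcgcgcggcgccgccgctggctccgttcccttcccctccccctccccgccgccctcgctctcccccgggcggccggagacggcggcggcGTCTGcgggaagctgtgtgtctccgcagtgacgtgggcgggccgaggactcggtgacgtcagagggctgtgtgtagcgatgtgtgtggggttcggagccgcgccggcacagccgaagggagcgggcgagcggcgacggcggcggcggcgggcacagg
TGFB2: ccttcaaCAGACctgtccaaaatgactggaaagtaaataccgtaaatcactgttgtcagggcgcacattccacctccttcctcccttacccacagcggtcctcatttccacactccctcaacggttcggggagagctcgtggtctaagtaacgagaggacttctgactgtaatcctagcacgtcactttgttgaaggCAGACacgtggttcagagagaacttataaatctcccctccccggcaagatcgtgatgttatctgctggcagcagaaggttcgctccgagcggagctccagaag
TGFBR2: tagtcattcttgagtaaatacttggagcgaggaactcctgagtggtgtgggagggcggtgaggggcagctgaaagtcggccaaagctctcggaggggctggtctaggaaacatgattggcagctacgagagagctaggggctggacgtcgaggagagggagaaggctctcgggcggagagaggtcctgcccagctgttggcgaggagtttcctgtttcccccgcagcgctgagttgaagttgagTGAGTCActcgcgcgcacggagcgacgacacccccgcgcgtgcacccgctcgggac
SMAD7: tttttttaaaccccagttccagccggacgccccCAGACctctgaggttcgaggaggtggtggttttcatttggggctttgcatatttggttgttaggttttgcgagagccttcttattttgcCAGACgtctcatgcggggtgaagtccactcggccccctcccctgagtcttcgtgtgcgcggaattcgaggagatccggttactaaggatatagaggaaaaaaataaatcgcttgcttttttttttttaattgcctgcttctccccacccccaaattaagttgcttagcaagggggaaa

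The GTCTG element was present in the windows of 6 of 10 members (TGFB2, TGFB3, TGFBR1, SMAD3, SMAD7 and SKIL) and in 45.3% of all 35116 RefSeq windows. The palindrome was in 0 of the 10 and in 0.202% of all windows, and the AP-1 motif was in the TGFBR2 window and in 7.71% of all. Only 1 window per member was searched, although SMAD7 had 3, SMAD3 5 and TGFBR1 8. An element at another start site of a member would therefore be missed. SKIL held 1 element, at bases 144 to 148 of its window, and SMAD7 held 2, at bases 34 to 38 and 123 to 127. TGFB2 also held 2, at bases 8 to 12 and 198 to 202. The start site used lies 1839 bases from the deposited gene start for SMAD3, 1087 for SMAD7, 899 for TGFB2 and 274 for SMAD2. For the other members the distance was 11 to 99 bases. These matches are descriptions of the letters in these windows.

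Genes for proteins that hold and release latent TGF-beta went both ways, and the counts and medians of the lists below are read against 16.1% of all tested genes higher, 15.8% lower and a median of -0.01. Of 19 listed genes 12 were tested, 4 rose and 2 fell (median log2 fold change 0.12, or 5 and 2 called with a median of 0.18 without Control replicate 3). Thrombospondin 1 (THBS1), which can activate the latent complex, had 265, 254 and 274 CPM in PM2.5 replicates 1 to 3, against 116, 119 and 143 CPM in Control replicates 1 to 3. It rose 2.10-fold (adjusted p = 8.05e-07 by edgeR). LTBP4, a matrix protein that tethers latent TGFB1, had 230 ± 12.5 CPM in libraries labelled PM2.5 and 123 ± 4.71 CPM in those labelled Control (SD, n = 3 each) and rose 1.87-fold (adjusted p = 1.64e-06 by edgeR). Its relative LTBP1 was at 125 ± 9.23 and 114 ± 6.18 CPM (adjusted p = 0.277 by edgeR). The integrin chain ITGB5 rose 1.68-fold to 270 ± 22.2 CPM, against 161 ± 12.2 CPM, and its partner ITGAV, chosen after its values were seen, rose 1.62-fold. The chain ITGB3 fell 2.39-fold to 3.47 ± 1.03 CPM, against 8.30 ± 1.15 CPM, and NRROS, which anchors latent TGFB1 on myeloid cells, fell 2.72-fold to 5.25 ± 0.24 CPM, against 14.3 ± 1.53 CPM. ITGB6, ASPN, DCN and BGN had 0 counts in all 6 libraries.

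Co-receptors and receptor partners moved both ways. Of 12 tested genes 2 rose and 4 fell, where 16.1% and 15.8% of all tested genes did (median log2 fold change 0.01, and 2 and 4 without Control replicate 3). Endoglin (ENG) had 28.98, 27.7 and 37.0 CPM in PM2.5 replicates 1 to 3, against 10.2, 11.9 and 15.6 CPM in Control replicates 1 to 3. All libraries labelled PM2.5 were well above the controls, and ENG rose 2.49-fold (log2 fold change 1.31 ± 0.16, SE, adjusted p = 1.2e-05 by edgeR). ACVRL1, the type I receptor that acts with endoglin in endothelial cells, rose 1.91-fold to 10.3 ± 1.30 CPM, against 5.38 ± 2.07 CPM. BAMBI, a receptor-like protein without a kinase domain that blocks signalling, fell 1.45-fold: it had 108, 101 and 114 CPM in PM2.5 replicates 1 to 3, against 175, 176 and 118 CPM in Control replicates 1 to 3. Its log2 fold change was -0.53 ± 0.13, and -0.71 without Control replicate 3, which lay near the libraries labelled PM2.5. The endocytic adaptor DAB2 fell 1.596-fold to 54.2 ± 2.06 CPM, against 86.6 ± 11.4 CPM, CD109, which binds TGF-beta at the cell surface, fell 2.93-fold to 0.893 ± 0.19 CPM, against 2.62 ± 0.52 CPM, and TGFBRAP1, chosen after its values were seen, fell 1.43-fold. Betaglycan (TGFBR3), with 15.0 ± 2.05 and 11.7 ± 1.26 CPM, missed the threshold (adjusted p = 0.0687 by edgeR, called by DESeq2 at 0.0474 and without PM2.5 replicate 3 at 0.0334).

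The activin branch, whose ligands signal through the same SMAD2 and SMAD3, included a rise of INHBB and smaller changes elsewhere. Of 17 listed genes 10 were tested, 3 rose and 4 fell, beside 16.1% and 15.8% of all tested genes (median log2 fold change 0.30, or 3 and 3 called with a median of 0.39 without Control replicate 3). INHBB, the subunit of activin B, lies on chromosome 2 and had 14.4, 12.9 and 13.9 CPM in PM2.5 replicates 1 to 3, against 1.76, 2.53 and 2.08 CPM in Control replicates 1 to 3. It rose 6.46-fold, with a log2 fold change of 2.69 ± 0.18 (SE, 3 libraries a group, adjusted p = 1.27e-08 by edgeR). INHBA, the subunit of activin A, went the other way, at 38.5, 34.4 and 35.6 CPM in PM2.5 replicates 1 to 3, against 49.8, 38.9 and 57.1 CPM in Control replicates 1 to 3. It fell 1.34-fold (adjusted p = 0.0168 by edgeR), a call lost without PM2.5 replicate 2 (adjusted p = 0.0590) or Control replicate 3 (0.0647) and with library totals (0.0528). The secreted activin antagonist follistatin (FST) rose 2.43-fold to 25.9 ± 2.02 CPM, against 10.7 ± 0.97 CPM (adjusted p = 1.49e-06 by edgeR). The type II receptor ACVR2B rose 1.69-fold to 35.5 ± 6.20 CPM, against 21.03 ± 1.37 CPM, and the ligand GDF11 fell 1.43-fold to 20.2 ± 1.203 CPM, against 28.9 ± 1.61 CPM. ACVR1B and FSTL3, chosen after their values were seen, completed the falls at log2 fold changes of -0.31 ± 0.10 and -0.28 ± 0.10 (SE). Both calls were lost without any one of PM2.5 replicates 1 and 2 and Control replicates 1 and 2, where adjusted p by edgeR reached 0.0922 for ACVR1B and 0.177 for FSTL3. The FSTL3 call was also lost with the replicate block (adjusted p = 0.0633 by edgeR).

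**Figure D4:**
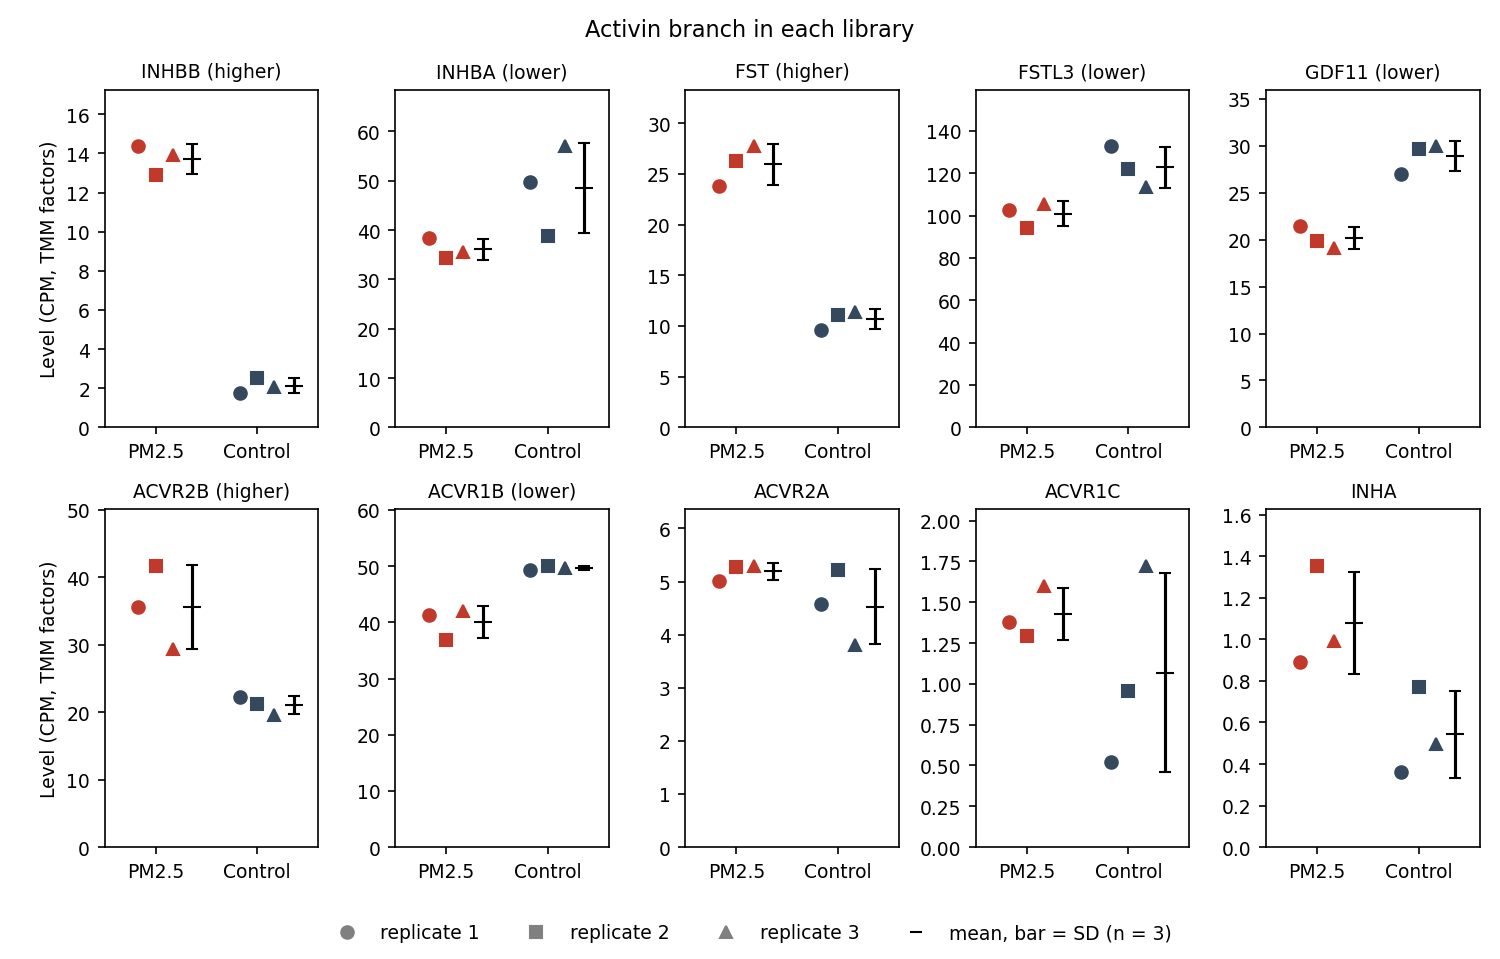
CPM with TMM factors of the 10 tested genes of the activin and nodal list in each library, PM2.5 left and Control right, with the mean and SD (n = 3). INHBB lies between 12.9 and 14.4 CPM in libraries labelled PM2.5 and between 1.76 and 2.53 CPM in those labelled Control, while the INHBA groups are separated by less than 1 CPM.

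SMAD partners and the enzymes that turn SMADs over showed 4 rises and 4 falls among 18 tested genes, beside 31.9% of all tested genes called (median log2 fold change -0.04, or 4 and 5 called with a median of -0.09 without Control replicate 3). The common partner SMAD4 was at 16.5 ± 1.02 CPM in libraries labelled PM2.5 and 16.1 ± 1.496 CPM in those labelled Control (SD, n = 3 each), and the inhibitory SMAD6 at 6.86 ± 0.078 and 5.99 ± 1.03 CPM. Neither passed the test. SMURF2, a ubiquitin ligase that SMAD7 brings to the receptor, had 268, 312 and 239 CPM in PM2.5 replicates 1 to 3, against 155, 143 and 208 CPM in Control replicates 1 to 3, and rose 1.62-fold (adjusted p = 0.000822 by edgeR). Its relative SMURF1 was at 77.7 ± 3.58 and 88.9 ± 3.16 CPM (adjusted p = 0.114 by edgeR). NEDD4L, a ligase for SMAD2 and SMAD3, rose 1.47-fold to 84.0 ± 1.55 CPM, against 57.0 ± 0.83 CPM. The repressor SKI, the relative of SKIL, rose 1.23-fold to 88.3 ± 6.32 CPM, against 71.8 ± 2.58 CPM. That call was lost without PM2.5 replicate 1 or 3 or Control replicate 1 or 2 (adjusted p from 0.0758 to 0.110 by edgeR). USP15, a deubiquitinase, rose 1.45-fold in overlapping groups, by 0.53 on the log2 scale and by 0.35 without PM2.5 replicate 2. Its call was lost there (adjusted p = 0.111 by edgeR), without Control replicate 1 (0.0628) and with the replicate block (0.0589). The deubiquitinase USP11 fell 1.93-fold to 57.9 ± 8.46 CPM, against 112 ± 6.07 CPM, and the ligase WWP2 fell 1.36-fold. The coactivators EP300 and CREBBP, chosen after their values were seen, fell 1.25-fold and 1.26-fold. The EP300 call was lost without PM2.5 replicate 1 or 2 and with library totals, and the CREBBP call without PM2.5 replicate 1 or Control replicate 2.

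Genes known to be induced by TGF-beta were split. Of 24 tested 11 rose and 8 fell, beside 16.1% and 15.8% of all tested genes (median log2 fold change 0.19, or 10 and 9 called with a median of 0.16 without Control replicate 3). The list was chosen with earlier results of these data known, so these counts are not read as an excess. Connective tissue growth factor, listed as CTGF and now named CCN2, had 193, 188 and 227 CPM in PM2.5 replicates 1 to 3, against 33.1, 31.5 and 35.4 CPM in Control replicates 1 to 3. All libraries labelled PM2.5 were far above the controls, and CTGF rose 6.07-fold (adjusted p = 6.47e-11 by edgeR). TGFBI rose 2.35-fold to 662 ± 52.5 CPM, against 282 ± 23.7 CPM, and fibronectin (FN1) rose 2.30-fold. IL11 and PTHLH, both known from TGF-beta signalling of breast cancer cells in bone and chosen after their values were seen, rose 1.94-fold and 1.603-fold. The transcription factor SNAI2 fell 4.13-fold to 6.19 ± 0.91 CPM, against 25.6 ± 4.83 CPM (adjusted p = 1.21e-07 by edgeR), and the sphingosine kinase SPHK1 fell 2.17-fold to 60.9 ± 4.70 CPM, against 132 ± 13.4 CPM. CDKN1A and LIF, chosen after their values were seen, fell 1.69-fold and 1.94-fold. Many of these genes also answer to other pathways, CTGF to YAP and CDKN1A to p53 among them.

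Genes known to be repressed by TGF-beta in epithelial cells were 5, of which 1 rose and 1 fell, beside 31.9% of all tested genes called in either direction (median log2 fold change -0.01). ID3, a dominant-negative partner of helix-loop-helix factors, fell 1.36-fold to 20.6 ± 1.70 CPM, against 28.0 ± 0.74 CPM. CDC25A, a cell cycle phosphatase, had 12.8, 12.2 and 11.9 CPM in PM2.5 replicates 1 to 3, against 8.91, 9.34 and 8.74 CPM in Control replicates 1 to 3, and rose 1.37-fold, a call lost without PM2.5 replicate 1 (adjusted p = 0.0860 by edgeR) or Control replicate 1 (0.0680). MYC had 211, 203 and 219 CPM in PM2.5 replicates 1 to 3, against 209, 239 and 141 CPM in Control replicates 1 to 3, and did not pass the test. The median of the list was -0.09 without Control replicate 3, with 1 rise and 1 fall.

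**Figure D5:**
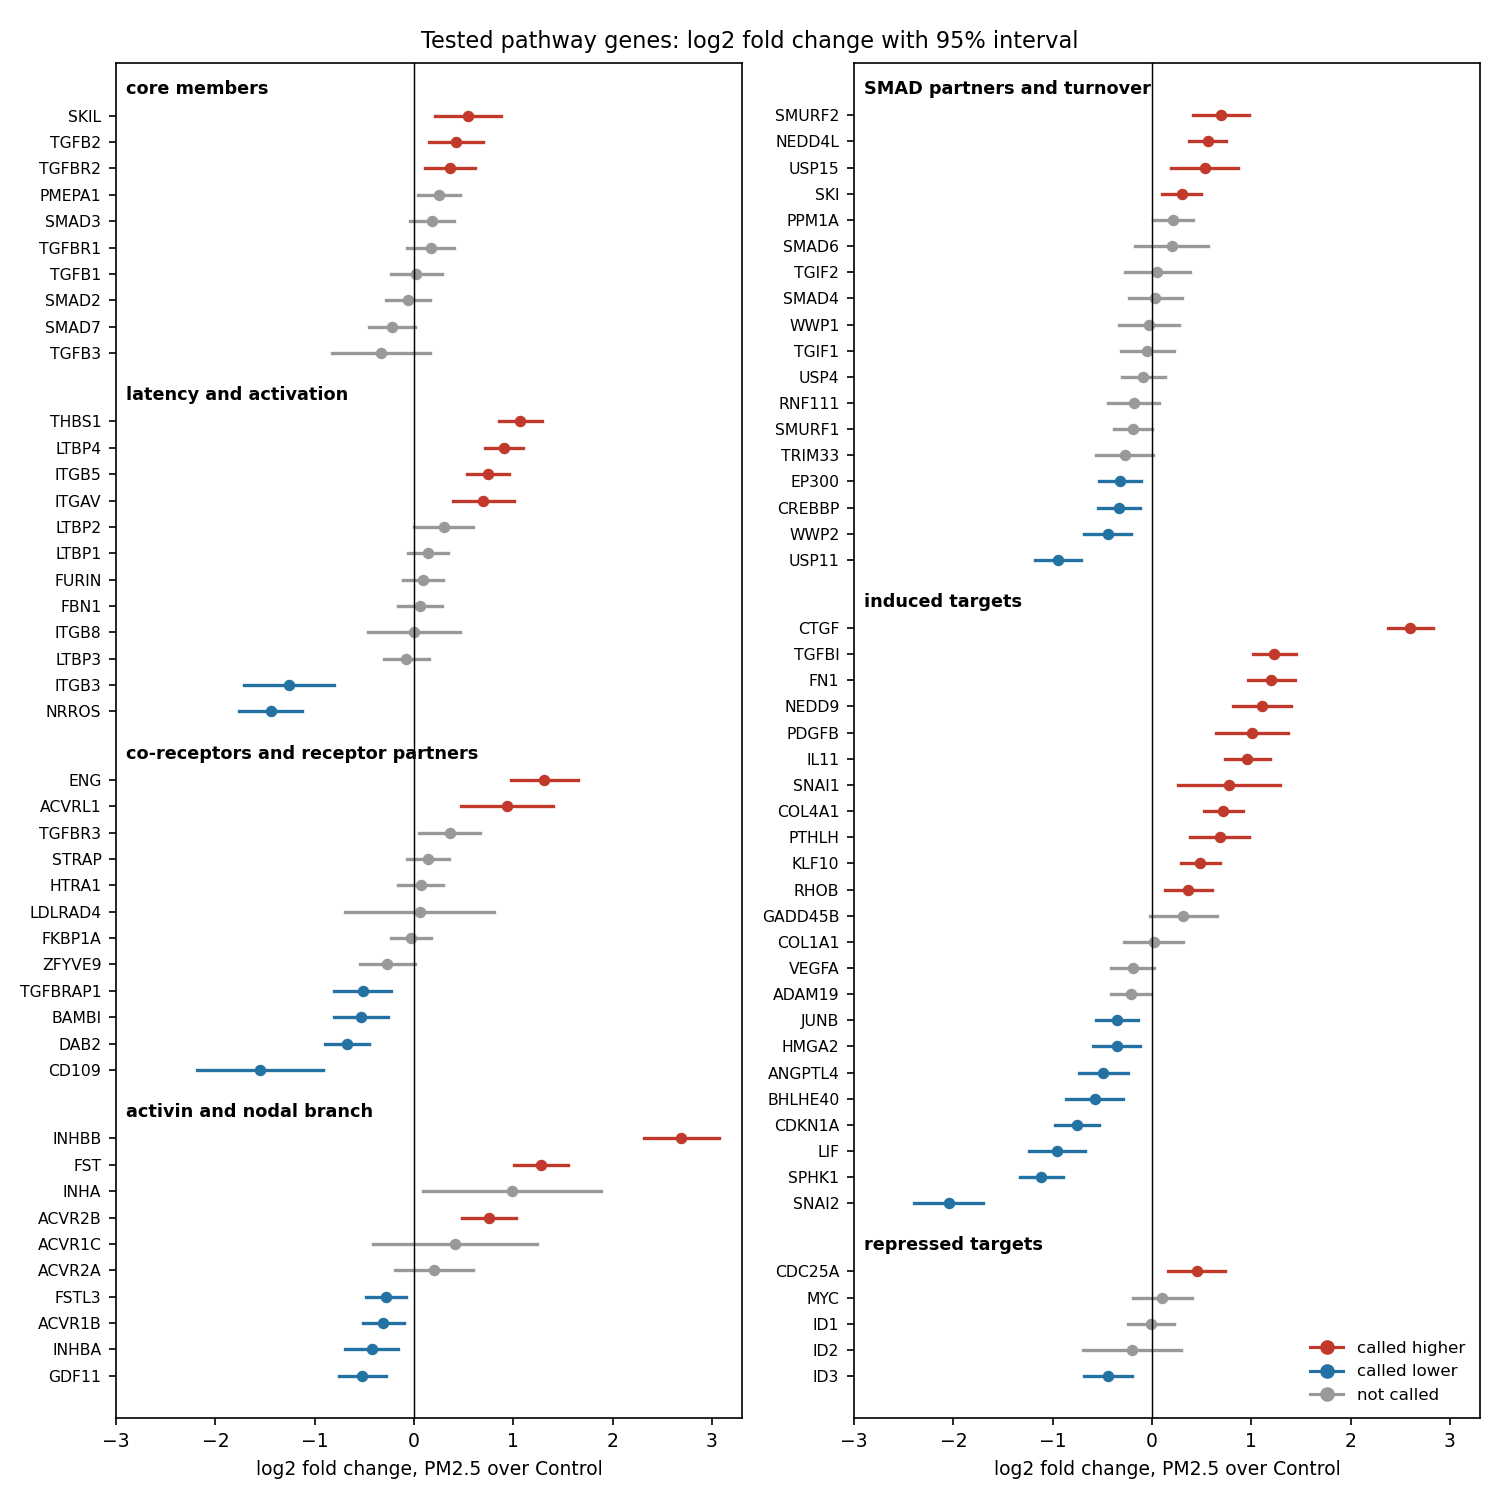
Log2 fold change, PM2.5 over Control, with its 95% interval for the tested genes of the 7 lists, coloured by call. The core genes lie between -0.34 and 0.54, INHBB at 2.69 and CTGF at 2.60, and ADAM12, at 0.07 with an SE of 0.80, is not drawn.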

How the data were processed

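RNA was sequenced from 3 MDA-MB-231 libraries labelled PM2.5 and 3 labelled Control. The authors deposited raw whole-number counts per gene on GRCh38 with a gene length, per the submitters' processing notes and the file headers. No label or header names the aligner, the counter or the strand setting. Columns were joined to samples by title. From the counts, genes passing filterByExpr (minimum count 10, minimum total 15) were normalised with TMM and tested with edgeR 4.0.16 (quasi-likelihood, group only, R 4.3.3), adjusting p by Benjamini-Hochberg across the 14975 genes kept and calling those under 0.05. The standard error is the log2 fold change over the square root of F.

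Members and gene lists were chosen with earlier results of these data known. The text names the 10 members, up to 5 called genes with the smallest p in each pathway list, and a set of well known pathway genes. One of these is not reported here and was left out of its list. Others are marked as chosen after their values were seen. HMOX1 and the marker genes are given as checks. Alternatives were DESeq2 1.42.0, limma-voom (limma 3.58.1), other scalings and filters, a replicate block, other gene lengths and leaving out each library. A count of 3 corresponded to 0.0865 to 0.0942 CPM, which covers counting error only. The fit was tested on simulated data of 14975 genes, with 67 changed by 1.5-fold, 67 by 2-fold and 66 by 4-fold. It recovered 52.2%, 74.6% and 97.0% of these, with 3.87% of calls false. Far fewer genes were changed there than the 31.9% called here, and each gene's spread was taken from a trend over genes. The recovery rates therefore do not give the power of this comparison. A gene that did not pass the test is not shown to be unchanged. Gene coordinates and exon overlaps came from GENCODE on GRCh38 and promoters from RefSeq. Correlations between members are not reported, because the 6 libraries fall into 2 groups.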

Additional observations from a re-analysis of the deposited data

How the results depend on the processing

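Leaving out 1 library at a time, core members called higher ranged from 0 (without PM2.5 replicate 1) to 2, and none was called lower. All genes called higher ranged from 1797 to 2600, and all genes called lower from 1448 (without PM2.5 replicate 1) to 2680. Activin branch genes called lower ranged from 1 to 4, SMAD partners from 2 to 4 higher and from 2 to 5 lower, and repressed targets from 0 to 1 higher. These fits have fewer libraries. The sign turned for TGFB1 (-0.093 to 0.113 on the log2 scale over the leave-outs), SMAD4 (-0.025 to 0.107), MYC (-0.089 to 0.264) and TGIF1, chosen after its values were seen (-0.206 to 0.061). None of these 4 was called, and the cause was not tested. No scaling, filter or tool moved a count of the listed groups by over 1.5 times. Gene length was varied for the ratios and levels only: with the shortest principal transcripts the mean TGFB3 share was 0.565% and 0.713%, and the log2 ratio of SMAD3 to SMAD2 was 3.77 and 3.52, in libraries labelled PM2.5 and Control. Same-numbered libraries deviated with correlations of 0.0147, -0.0480 and -0.175, and other pairs ran from -0.214 to 0.200. No label says whether the numbers pair the samples, and these correlations cannot decide it. With a replicate block, all genes called higher were 1951 and all genes called lower were 1826, 2 members were higher and 0 lower, and SKIL (adjusted p = 0.0565 by edgeR), USP15 (0.0589) and FSTL3 (0.0633) were not called. TGFB3, with 591 counts in all, is the member that depth limits most.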
